A study of Mus musculus with 9 samples.

Results

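The genes of the cytosolic ribosomal proteins were followed through 9 mouse colon libraries. A gene was a member if its symbol was Rpl or Rps with a number, optionally followed by a, x, l, l1, al or rt, or if it was Rplp0, Rplp1, Rplp2 or Rpsa, and symbols holding -ps, which name pseudogenes, were left out. This gave 87 of the 36256 genes in the deposited table, 54 of the large subunit and 33 of the small. Of these, 11 had paralogue-type symbols (ending in l, l1, al or rt), and 4 of the 11 (Rpl6l, Rpl32l, Rpl37rt and Rps4l) were annotated as pseudogenes. Poly(A) RNA came from colon of C57BL/6 mice, 1 library per mouse and 3 mice per group. The NC mice were controls. The MC mice were given dextran sulfate sodium (DSS), which damages the lining of the colon, in a model of 9 days. The LRWE mice had the same DSS model and, per the series text, Linderae Radix extract at 2 g/kg, although their own treatment label names only DSS. The sources used here do not state age, sex or the segment of colon. Per the series text, the sequenced mice were drawn at random within their groups, and each group here is 3 animals at a single time.

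The cytosolic ribosome joins a small subunit, which holds the messenger RNA and reads its codons, to a large subunit, which forms peptide bonds. Each subunit is built in the nucleolus from ribosomal RNA and many proteins, nearly all present as a single copy, and the genes for these proteins are known to be expressed in proportion to one another. Their messages are short and abundant, and many begin with a run of pyrimidines at the 5′ end, the terminal oligopyrimidine (TOP) tract, through which mTOR signalling controls their translation. The colon epithelium renews itself continually from dividing crypt cells and has a high demand for ribosomes.

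Pyrimidine runs around the start site, which the choice of genes did not use, were counted next. RefSeq promoters (GRCm38.p6) were found for 65 of the 87 genes, with 77 start sites. Between 40 bases before and 20 after the annotated start, an unbroken run of at least 7 pyrimidines (C or T, gene strand) was present at 49 of 77 starts (63.6%), against 35.3% of 32851 starts of all genes in the same window. The count takes a run anywhere in the window, also well before the start, so it does not single out TOP tracts. Over the whole RefSeq promoters (250 bases before to 50 after the start, either strand), CCGGAA was present at 46.8% of member starts against 14.9% of all, and CACGTG at 10.4% against 7.2%. The 4 windows printed first belong to genes with a run at or next to the start, and the other 3 to paralogue-type genes, to show how far these differ. Capitals mark the longest pyrimidine run, and the base after the first 40 is the annotated start.
Rps18, chr17:33955646-33955705, minus strand: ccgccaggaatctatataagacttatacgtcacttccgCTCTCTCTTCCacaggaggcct
Rps6, chr4:86857348-86857407, minus strand: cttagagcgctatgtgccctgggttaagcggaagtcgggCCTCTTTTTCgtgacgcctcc
Rps27, chr3:90213629-90213688, minus strand: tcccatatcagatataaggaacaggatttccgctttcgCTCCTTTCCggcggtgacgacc
Rplp2, chr7:141447611-141447670, plus strand: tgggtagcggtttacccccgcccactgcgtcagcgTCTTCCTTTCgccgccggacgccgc
Rpl22l1, chr3:28805468-28805527, plus strand: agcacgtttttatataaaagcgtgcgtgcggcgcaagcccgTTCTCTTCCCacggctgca
Rpl36al, chr12:69184048-69184107, minus strand: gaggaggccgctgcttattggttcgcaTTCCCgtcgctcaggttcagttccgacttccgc
Rpl7l1, chr17:46782637-46782696, minus strand: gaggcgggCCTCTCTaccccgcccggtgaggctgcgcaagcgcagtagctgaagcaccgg
The run began within 5 bases of the start in the first 5, among them the paralogue-type Rpl22l1. It was only 5 bases long in Rpl36al, and in Rpl7l1 it lay 32 bases before the start.

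In control colon the messages spanned a wide range of levels per kilobase. Levels are given as CPM, the count relative to the library total after scaling with TMM factors. For comparison between genes they are given per kilobase of the GENCODE M21 principal transcript. This was the longest principal transcript of a gene, or its longest transcript where none was tagged principal. The 76 members without a paralogue-type symbol ran from 37.5 to 1211 CPM per kb in NC, a 32.3-fold range. The highest was Rps15, of the small subunit, at 1211 ± 97.3 CPM per kb (SD, n = 3), followed by Rplp1, a P-stalk protein that helps recruit elongation factors, at 1176 ± 93.3, and Rpl13a at 1105 ± 86.3. These 3 neighbours did not differ beyond their spread. Rps6, the small-subunit protein phosphorylated by S6 kinase, stood at 1018 ± 17.9 CPM per kb. The lowest was Rps15a at 37.5 ± 3.72 CPM per kb. The transcript used for it, at 5179 bases, is the longest of these 76, so the width of the range depends on the length chosen. The median was 447 CPM per kb for the large subunit and 530.2 for the small. The deposited FPKM put Rplp1 first and Rps15 second. The length implied by FPKM, counts and library totals was within 2% of 1.07 times the merged exons of a gene for all 76 of these members. Whether this constant factor lies in the length or in the library total behind FPKM was not tested. Their merged exons had a median of 1805.5 bases against 882 for the principal transcript, so the order of levels depends on the length used.

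Member messages took 3.42%, 3.32% and 3.54% of the counts of control libraries 1 to 3. They took 1.901%, 1.80% and 1.96% in the MC libraries. The LRWE libraries gave 2.22%, 2.97% and 2.45%. The groups did not overlap: every MC library was below every LRWE library, and every LRWE library below every NC library. With 3 against 3, an exact permutation test cannot go below p = 0.10, so the shares are given without a test. In bulk tissue, fewer cells of a type and less RNA per cell cannot be told apart. The large-subunit genes held 2.12% ± 0.0671 of NC counts, 1.16% ± 0.0528 of MC counts and 1.55% ± 0.239 of LRWE counts (SD, n = 3). The small subunit held 1.304% ± 0.0476, 0.730% ± 0.0331 and 0.998% ± 0.148 in the same order. The ratio of large-subunit to small-subunit counts stayed between 1.52 and 1.66 in all 9 libraries, with group means of 1.63 ± 0.0257 in NC, 1.58 ± 0.0233 in MC and 1.55 ± 0.0310 in LRWE. The NC and LRWE ranges of this ratio did not overlap.

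**Figure D1:**
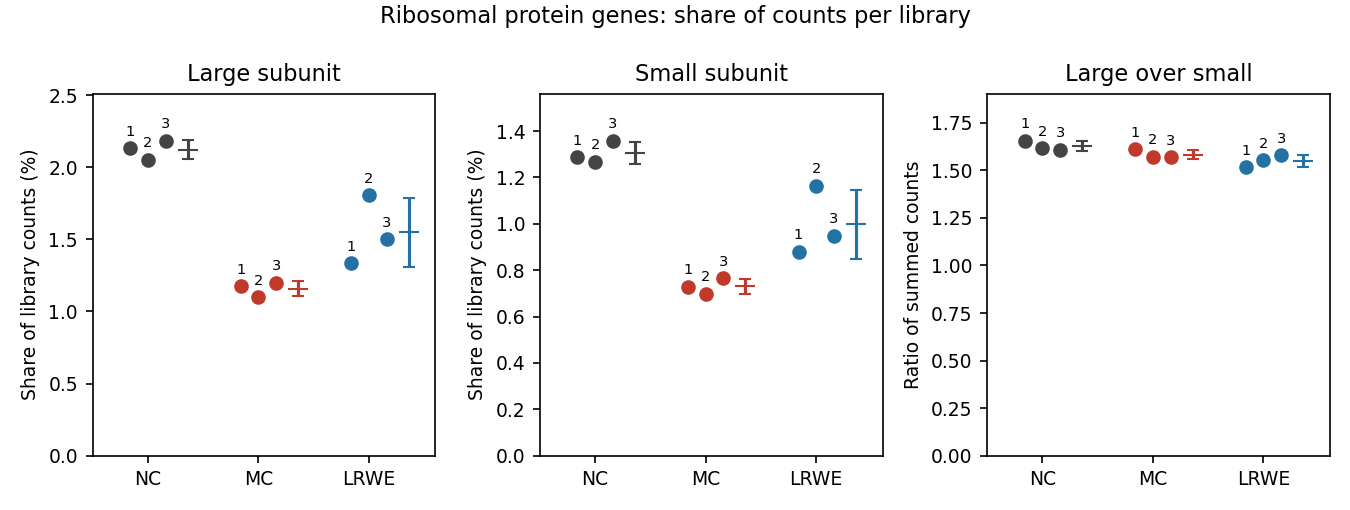
Share of library counts (%) in large-subunit genes (left) and small-subunit genes (middle), and the ratio of their summed counts (right), by group. Points are libraries labelled by replicate, and bars are the group mean with its SD (n = 3). The MC libraries lie lowest for both subunits, while the ratio stays between 1.52 and 1.66.

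Library totals ran from 59042063 to 65042857 counts. LRWE replicate 2 stood apart: it had the fewest genes with a count (21218, against up to 26019) and the lowest TMM factor (0.844). Its members lay a median of 0.65 on the log2 scale above the mean of LRWE 1 and 3, and 84 of the 86 tested were above, while the median of all tested genes was -0.01. Results on LRWE are therefore also given without it. The tissue was labelled colon, and its 10 epithelial markers, all tested, summed to 10067 to 12738 CPM across NC libraries, 6613 to 12185 across MC and 12484 to 19194 across LRWE. Markers of B and plasma cells moved with the groups: the 10 genes summed to 831 to 2399 CPM across NC, 57.7 to 296 across MC and 70.7 to 224 across LRWE. Of these, 2 (Igha and Jchain) fell in MC against NC, and 7 were at 0 in 1 to 4 libraries, Cd79a, Cd79b and Ms4a1 among them in 1 each. The median log2 fold change of the 10 genes was -1.60 in MC against NC, -3.29 in LRWE against MC and -4.69 in LRWE against NC. By edgeR 0 were called in LRWE against MC and 2 fell in LRWE against NC. Within NC the sum of these 10 markers differed between 831, 1872 and 2399 CPM in libraries 1 to 3, whose member shares were 3.42%, 3.32% and 3.54%. Markers of proliferating cells summed to 131 to 182 CPM across NC, 97.1 to 141 across MC and 117 to 159 across LRWE. Smooth muscle markers ranged over 8765 to 12909, 6815 to 12056 and 2537 to 6863 CPM in that order of groups, and neuronal and glial markers over 154 to 202, 592 to 855 and 63.3 to 436. LRWE 2, with the highest member share of its group (2.97%), had the highest epithelial sum of all 9 libraries (19194). It also had the lowest smooth muscle sum (2537) and the lowest neuronal and glial sum (63.3). Summed neutrophil markers ranged over 142 to 227, 18.1 to 252 and 14.4 to 69.0 CPM, with S100a8 at 0 in 3 libraries. Single genes differed from these sums: the 6 tested had log2 fold changes from -0.93 to 7.19 in MC against NC (median 2.86). In LRWE against NC they ran from -2.70 to 6.03 (median 2.12), and 0 were called in either comparison. T cell markers ranged over 11.99 to 34.6, 18.8 to 25.5 and 19.5 to 28.5. Striated muscle markers ranged over 31.1 to 41.3, 18.4 to 55.8 and 33.7 to 49.1, with Myh4 at 0 in all 9 libraries. Their 7 tested genes had a median log2 fold change of 0.03 in MC against NC and -2.65 in LRWE against NC. The part of these cell types in the results that follow was not tested.

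Mice given DSS alone were first set against controls. Ribosomal protein messages of both subunits were lower in MC. Of the 86 members that passed the filter on low counts (all but Rpl39l), 51 fell at an adjusted p under 0.05 (edgeR quasi-likelihood test, Benjamini-Hochberg over 21767 genes) and 0 rose. Over all genes tested 6.37% were called, 3.53% lower and 2.84% higher. At an unadjusted p under 0.05, 76 members were lower (12.2% of all genes) and 0 higher, and neither DESeq2 nor limma called any member higher. The median log2 fold change was -0.97, a 1.96-fold lower level, against -0.01 over all genes. In 77 of 86 members every MC library was below every NC library, as in 20.1% of all genes. All 76 members without a paralogue-type symbol had a value below 0, from -0.44 (Rpl37a) to -1.66 (Rpl17), and 50 of them were called.

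Both subunits were lower. In the large subunit 29 of 53 tested members fell, with a median of -0.98, and in the small subunit 22 of 33 fell, with a median of -0.96. The difference of the medians was -0.02. It was not tested, since genes of the same libraries are not replicates. Values within a subunit spread further, with quartiles of -1.21 and -0.81 in the large and -1.12 and -0.83 in the small. Over the 76 members without a paralogue-type symbol, which share these libraries, Spearman's rho of the value was -0.03 with transcript length and 0.09 with mean level.

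**Figure D2:**
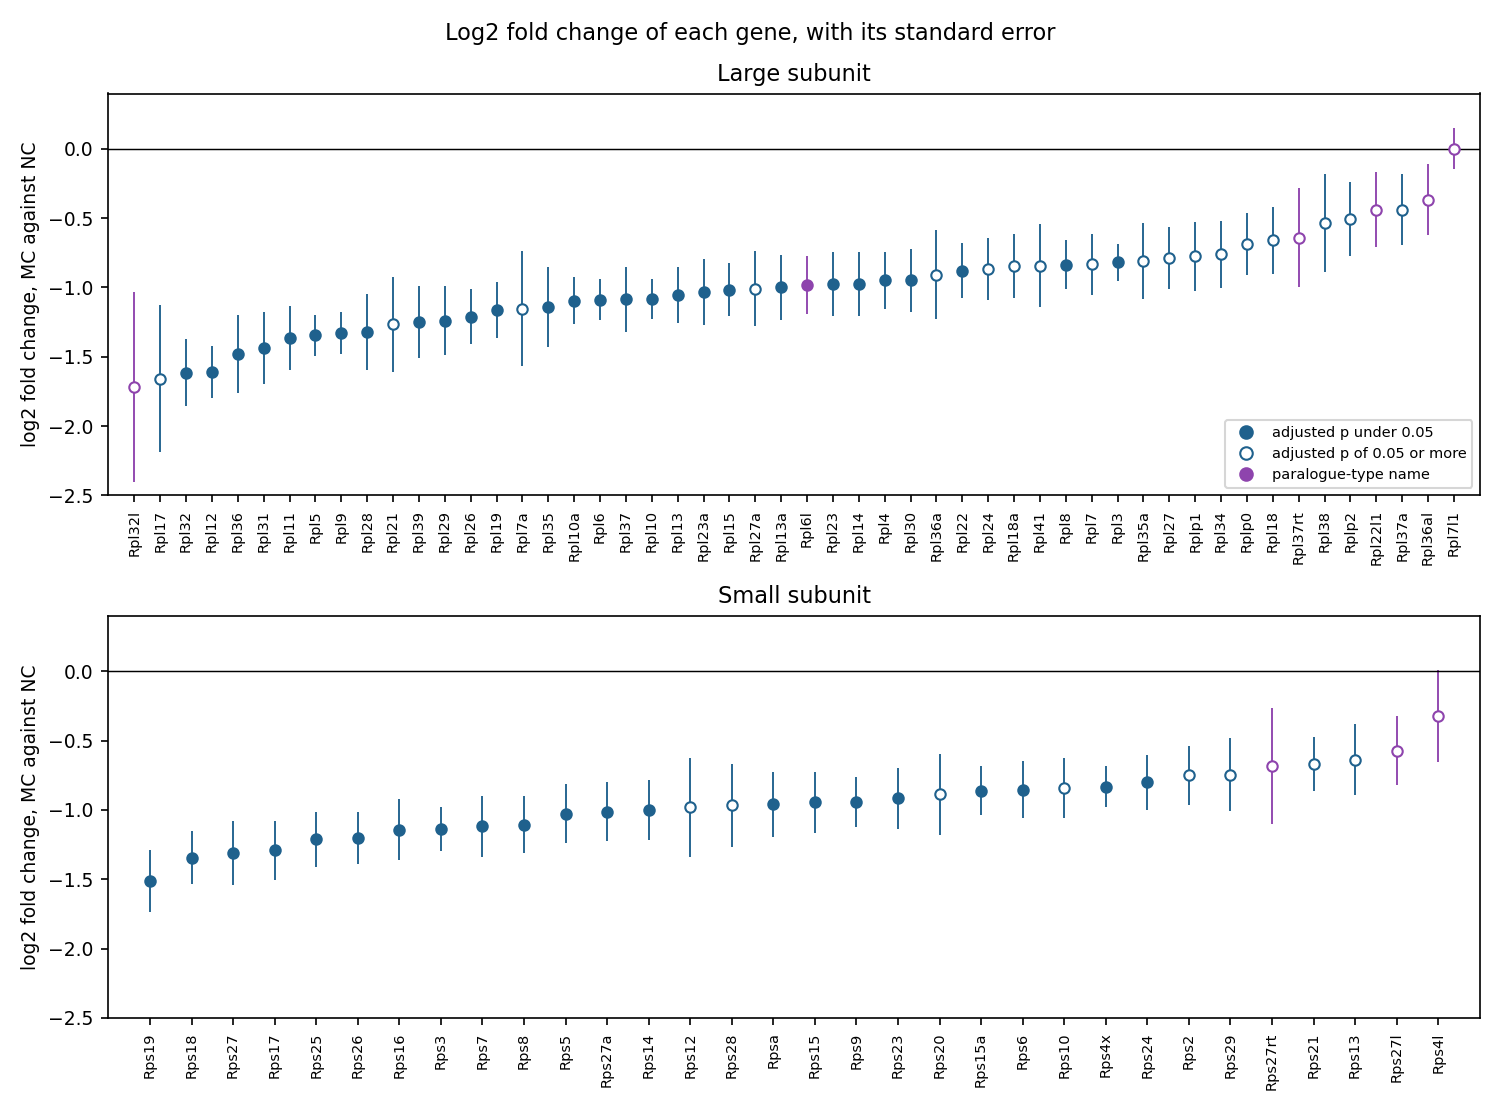
Log2 fold change of MC against NC for 52 large-subunit (top) and 32 small-subunit (bottom) genes, ordered by value. Points are edgeR estimates, bars their standard error, filled points passed an adjusted p under 0.05, and purple marks paralogue-type symbols. Rpl3l (log2 fold change 0.35, SE 1.64) is left out for scale. Nearly all values lie below 0 in both subunits, and Rpl7l1 lies at 0.00.

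Among large-subunit proteins, Rpl5 and Rpl11, which bind 5S ribosomal RNA and can inhibit Mdm2, both fell. Rpl5 stood at 747, 735 and 786 CPM in NC and 279, 297 and 316 in MC. The MC libraries were all far below the NC libraries, with a log2 fold change of -1.35 (SE 0.15, adjusted p 0.0044 by edgeR). Rpl11 stood at 629, 547 and 596 CPM in NC and 243, 199 and 245 in MC, again without overlap (log2 -1.37, SE 0.23, edgeR adjusted p 0.014). Rpl12, a protein of the stalk base, read 617.5, 562 and 648 CPM in NC against 202, 179.5 and 217 in MC, 3.05-fold lower (log2 -1.61, SE 0.19, edgeR adjusted p 0.0044). Rpl9, also near the stalk base, read 364, 375 and 367 CPM in NC and 131, 152 and 158 in MC (log2 -1.33, SE 0.15). Rpl10, which joins the large subunit late in its assembly, and Rpl6 fell by 1.08 and 1.09 on the log2 scale. Rpl4, among the most abundant members, read 1448, 1352 and 1326 CPM in NC and 741, 617 and 778 in MC (log2 -0.95, SE 0.21, edgeR adjusted p 0.032).

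The 3 P-stalk proteins lay nearer 0 than the median of their subunit and 0 of the 3 were called. Rplp0 read 1313, 1305 and 1261 CPM in NC and 769, 655 and 986 in MC, Rplp1 read 628, 536 and 597 against 343, 299 and 386, and Rplp2 read 311, 255 and 268 against 192, 154 and 243. In each of the 3 genes the groups did not overlap. Their log2 fold changes were -0.69 (SE 0.22), -0.78 (SE 0.25) and -0.50 (SE 0.27), with edgeR adjusted p of 0.10, 0.096 and 0.29. Rpl17 had the lowest value of the members without a paralogue-type symbol, at 458, 318 and 211 CPM in NC and 187, 49.5 and 76.5 in MC. Its controls differed among themselves by more than those of most members, and it was not called (log2 -1.66, SE 0.53, edgeR adjusted p 0.096). Rpl32, next in order, fell by 1.62 on the log2 scale.

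In the small subunit, Rps3, which lines the messenger RNA entry channel, fell from 482, 476 and 530.4 CPM to 209, 246 and 222 (log2 -1.14, SE 0.16, edgeR adjusted p 0.0075). Rps18, in the head of the subunit, fell from 328, 296 and 367 CPM to 135, 119 and 136 (log2 -1.34, SE 0.19, edgeR adjusted p 0.0078). The lowest value belonged to Rps19, a protein mutated in Diamond-Blackfan anaemia in people, at -1.51 (SE 0.22). Rps26, at the messenger RNA exit, and Rps25, in the head, fell by 1.20 and 1.21 on the log2 scale. Rps6 read 891, 879.9 and 911 CPM in NC and 489, 435 and 561 in MC (log2 -0.85, SE 0.21, edgeR adjusted p 0.045). Rpsa, which is also known as a laminin receptor, read 1353, 1260.2 and 1304 CPM against 687, 549 and 778 (log2 -0.96, SE 0.23, edgeR adjusted p 0.046). Rps15 and the X-linked Rps4x fell by 0.94 and 0.83. At the other end, Rps13 read 142, 155 and 194 CPM in NC against 106, 83.6 and 127 in MC and was not called (log2 -0.64, SE 0.26).

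Of the members with paralogue-type symbols 1 of 10 tested was called, and of the others 50 of 76. Their median was -0.50, and the difference was not tested. The called one was the pseudogene row Rpl6l (log2 -0.98, SE 0.21, edgeR adjusted p 0.029). Rpl7l1, a relative of Rpl7, read 39.4, 40.3 and 35.9 CPM in NC and 39.1, 44.4 and 32.2 in MC. These ranges overlapped, and the log2 fold change was 0.00 (SE 0.14), though with upper-quartile scaling it was -0.04 and with TMM factors from the other genes -0.00. Rpl22l1, the paralogue of Rpl22, read 38.3, 26.7 and 39.5 CPM against 28.9, 20.3 and 27.9 (log2 -0.44, SE 0.27), and Rpl36al read 86.1, 76.6 and 87.6 against 57.2, 56.8 and 80.2 (log2 -0.37, SE 0.26). Rps27l, a p53 target in people, had a value of -0.57 (SE 0.25). Rps27rt and Rpl37rt, retrotransposed copies, had values of -0.68 and -0.64, and the pseudogene rows Rps4l and Rpl32l of -0.32 and -1.72, none of them called. Rpl3l, a muscle form of Rpl3, was near the limit of detection, with 0 to 40 counts per library (log2 0.35, SE 1.64), and Rpl39l, a testis form, had 6 counts in NC replicate 2, 4 in MC replicate 1 and 0 elsewhere.

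Many members share sequence with other rows of the table, so reads could be divided among them, and the sources used here do not say how reads with several matches were counted. A median of 43.2% of the 50-base windows of a member's transcript occurred in another gene. For Rps27 this was 98.6%, all of it also in Rps27rt, and for Rpl7a, whose NC libraries read 174, 199 and 375 CPM, it was 81.2%, so both are uncertain. Other members shared more than Rpl7a, among them Rpl9 (93.3%), Rpl10a (88.1%), Rps18 (86.7%), Rpl10 (85.4%) and Rps6 (84.6%). The same limit holds for their values. The 6 members without a paralogue-type symbol that shared under 10% of windows had a median of -0.88 with 5 called lower, and the 31 that shared 50% or more had a median of -1.05 with 21 called lower. Rps3, with 2.96% of its windows shared, was called in all 9 fits that left out a library, and so were the highly shared Rpl9, Rpl10, Rpl10a and Rps18. The median was -1.004 in 38 members with a pyrimidine run of at least 7 bases in the window around the start and -0.96 in 18 without.

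Level and length were checked against the rest of the transcriptome. In the 1638 other genes with a mean of 100 CPM or more the median of MC against NC was -0.03, with 7.88% called lower and 6.29% higher, against -0.998 in the 67 members at that level, of which 47 (70.1%) were called lower. The 17 members at 10 to 100 CPM had a median of -0.68, with 23.5% called lower. Other genes at 10 to 100 CPM had a median of -0.002, with 5.13% called lower. Length was compared at a mean of 100 CPM or more. For principal transcripts of 600 to 1000 bases, the median was -0.16 in 98 other genes and -1.07 in 28 members. Of these, 6.12% and 82.1% were called lower. Under 600 bases the median was -0.29 in 33 other genes and -0.93 in 12 members, with 12.1% and 41.7% called lower. In longer classes medians ran from -0.09 to 0.01 in other genes and from -0.99 to -0.86 in members. Other genes with shorter transcripts thus lay lower, and members lay below them in each class.

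**Figure D3:**
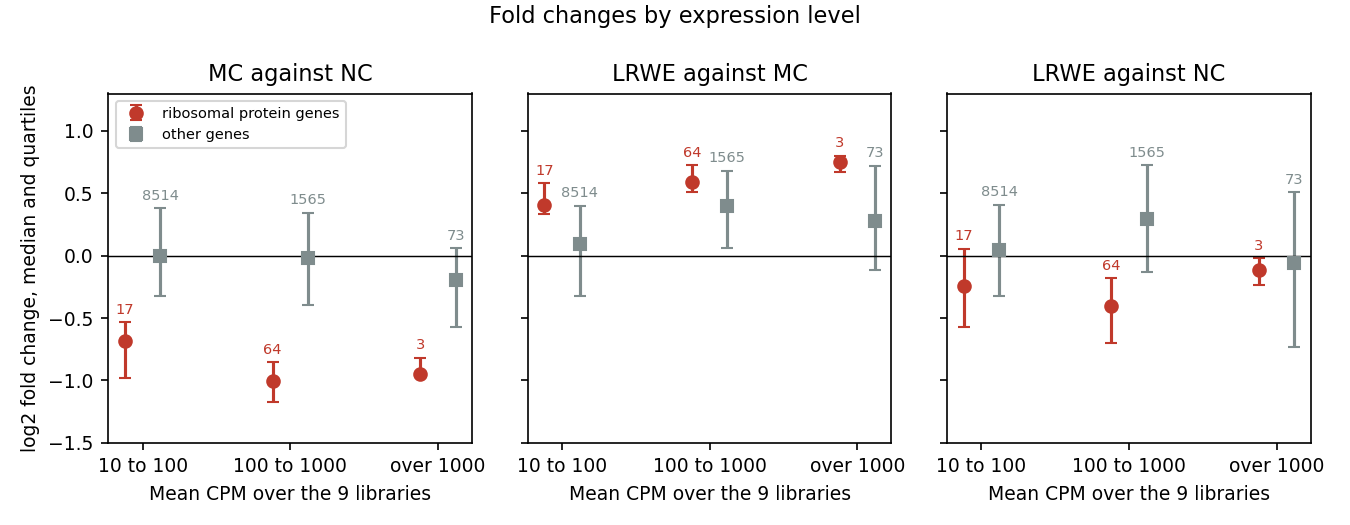
Median log2 fold change with quartiles, by mean CPM over the 9 libraries, for ribosomal protein genes (red circles) and other genes (grey squares) in the 3 comparisons, with numbers of genes above the bars. In MC against NC the ribosomal protein genes lie at -0.68 for 10 to 100 CPM, -1.004 for 100 to 1000 and -0.95 for over 1000. Other genes lie at -0.002, -0.02 and -0.19 in that order. In LRWE against MC other genes of 100 to 1000 CPM also lie above 0, at 0.40.

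Other lists were read beside the 3.53% of all genes called lower and the 2.84% called higher. Of 4 ribosomal protein genes outside the symbol rule, 2 fell by edgeR. Rack1, a scaffold protein of the small subunit, fell from 608, 584 and 608 CPM in NC to 252, 245 and 273 in MC (log2 -1.22, SE 0.18, edgeR adjusted p 0.0078). Fau, a ubiquitin-like protein fused to eS30, and Rps3a1 were not called, with values of -0.37 (SE 0.27) and -0.45 (SE 0.20). Among 12 elongation factors and other TOP messages 2 fell, Eef1d (-1.03) and Gas5 (-0.74), and 0 rose, with a median of -0.59. Of 34 initiation factors 7 fell, Eif3h (-1.03) and Eif3l (-0.94) among them, and 2 rose, Eif4g1 (0.59) and Eif4g3 (0.75), with a median of -0.29. Of 49 ribosome biogenesis genes 5 fell, including Npm1 (-0.91), a nucleolar chaperone, and Tsr1 (-1.74), an assembly factor of the small subunit, and 0 rose (median -0.29). Of 14 mTOR and Myc pathway genes 1 fell, Max (-0.95), and of 9 p53 targets 0 were called by edgeR, with 2 at an unadjusted p under 0.05, Ccng1 at -0.65 and Mdm2 at 0.39.

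The number of calls depended on single libraries, while the sign of the median did not. Leaving out NC 1, NC 2, NC 3, MC 1, MC 2 or MC 3 left 11, 19, 18, 17, 25 and 21 members called lower, beside 0.765%, 0.904%, 1.40%, 1.32%, 2.37% and 1.3% of all genes. Leaving out LRWE 1, 2 or 3 gave 58, 69 and 38 members, beside 4.28%, 6.08% and 2.56% of all genes. The median stayed between -1.08 and -0.85 in these 9 fits. Called in all 9 were 10 members: Rpl5, Rpl6, Rpl9, Rpl10, Rpl10a, Rpl12, Rpl32, Rps3, Rps18 and Rps19. Rps6, Rpsa, Rpl4 and Rps15 were called in 2 of the 9, and Rpl6l in 3.

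Among mice given DSS, those labelled LRWE were then set against MC. No gene was called: 0 of 86 members and 0 of 21767 genes (0%) passed an adjusted p under 0.05 by edgeR, with 53 members at an unadjusted p under 0.05 and a higher level, against 12.8% of all genes. DESeq2 called 25 members higher, beside 5.96% of all genes, and limma on FPKM called 0. The members' values lay above 0 in 85 of 86, with a median of 0.57, a 1.48-fold higher level, against -0.03 over all genes. In 43 of 86 members every LRWE library was above every MC library, as in 14.3% of all genes. The medians were 0.55 in the large and 0.59 in the small subunit. Other abundant genes lay above 0 as well: in those with a mean of 100 CPM or more the median was 0.39, and 0.59 in the members at that level, and at 600 to 1000 bases both stood at 0.56.

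None of the members named next was called. Rpl7a, one of the uncertain genes and the highest in value, read 151, 86.1 and 100.1 CPM in MC and 169, 465 and 305 in LRWE (log2 1.48, SE 0.42). Rpl18 read 304, 217 and 309.8 CPM in MC and 414, 759.8 and 491 in LRWE, without overlap (log2 1.003, SE 0.24, edgeR adjusted p 0.16), and Rpl21 had a value of 1.02. In the small subunit, Rps27rt, Rps27a, which encodes a ubiquitin fusion, and Rps14 led with 1.03, 0.87 and 0.85. Rps27rt shares 91.1% of its windows with Rps27, so the values of both are uncertain. Rpl5 read 407, 475 and 516 CPM in LRWE (log2 0.65, SE 0.15, edgeR adjusted p 0.16). The P-stalk genes stood at 0.75, 0.80 and 0.84 for Rplp0, Rplp1 and Rplp2. Among the lowest were Rps27 at 0.17, Rps28 at 0.18 and Rps25 at 0.32, of which the first 2 changed sign when libraries were scaled by their totals (-0.06 each), and Rpl7l1 stood at 0.05 (SE 0.14), or -0.16 with totals. Spearman's rho of the value over the 76 members was 0.29 with transcript length and 0.41 with mean level.

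LRWE replicate 2 was the highest library of its group in most of these genes. In Rplp0 the LRWE libraries read 1044, 1656 and 1363 CPM, in Rpsa 934, 1604 and 1088, and in Rps6 602, 999.7 and 754, with replicate 2 highest in each. Without LRWE 2 the median over the members was 0.35 with 81 of 86 above 0, and 0 were called. Without LRWE 1, the library with the lowest share of member counts, the median was 0.74 and 33 members were called higher, beside 4.13% of all genes. No other single omission gave a called member. In the other translation lists edgeR called 0 genes, with medians of 0.78 in the 4 ribosomal protein genes outside the rule, 0.53 in elongation factors and TOP messages, 0.24 in initiation factors and 0.07 in biogenesis genes.

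**Figure D4:**
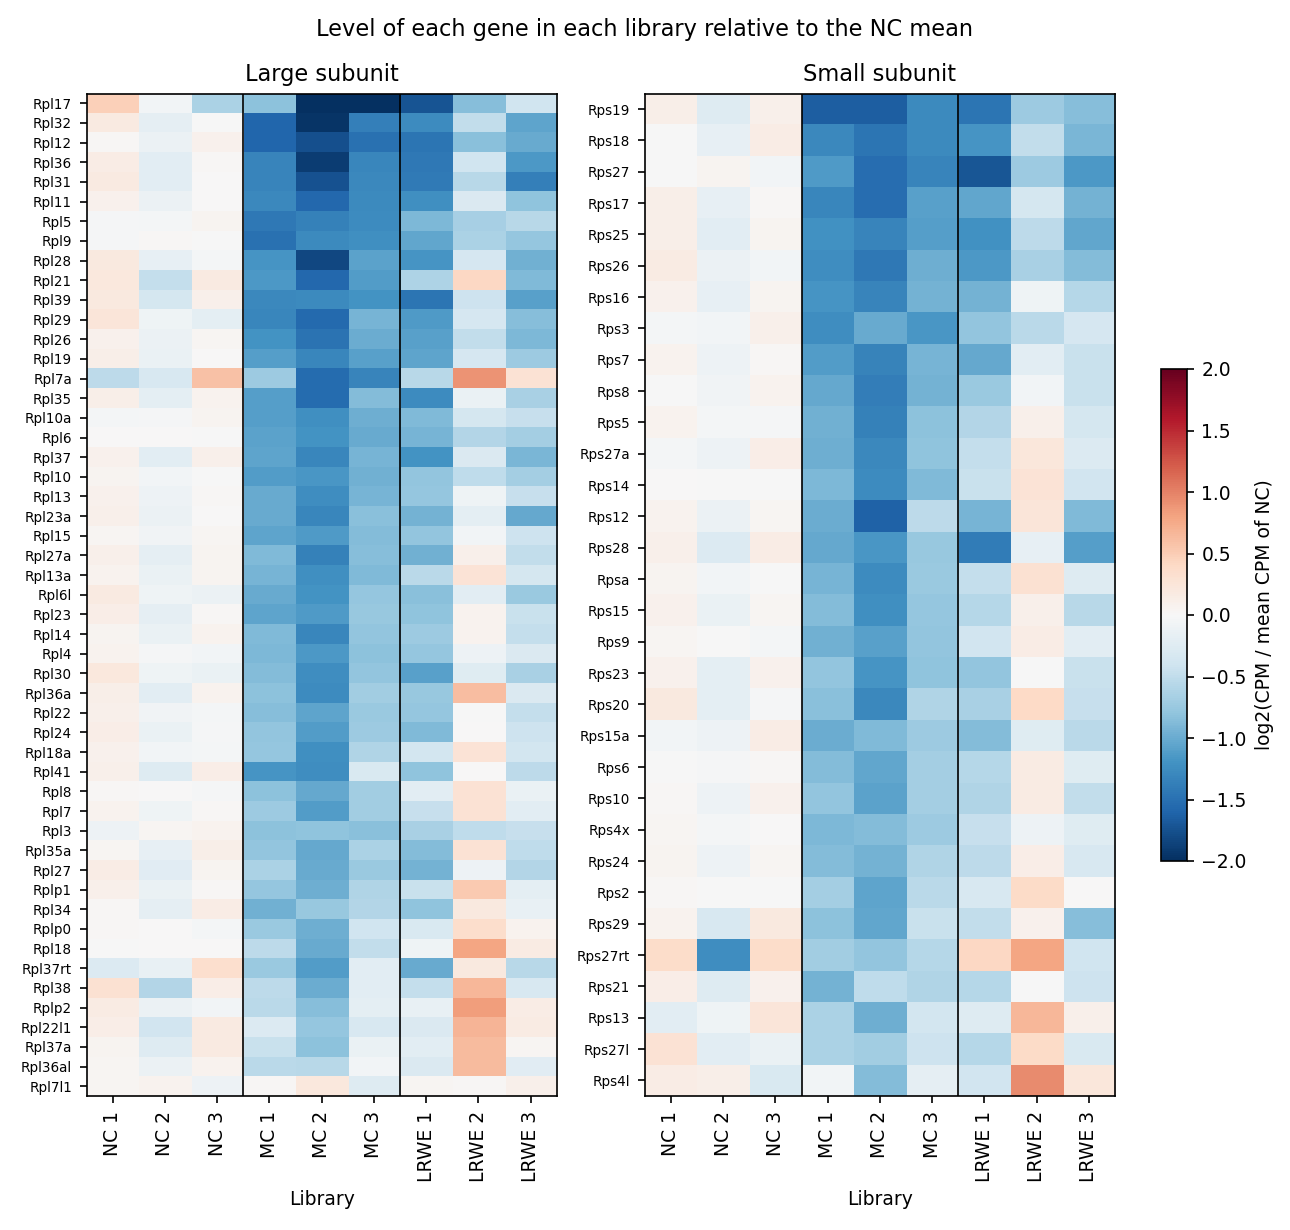
Level of 83 tested members with a mean of at least 10 CPM in each library, as log2 of CPM over the NC mean, ordered within each subunit by the fold change of MC against NC. Blue is below and red above the NC mean. The MC columns are blue in nearly every row, and the median over tested members was -0.79 in LRWE 1, -0.00 in LRWE 2 and -0.47 in LRWE 3.

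Last, LRWE mice were set against controls. This comparison shares its LRWE and NC libraries with the comparisons above. Of the 86 members 14 fell (9 large-subunit, 5 small-subunit) and 0 rose by edgeR, beside 3.97% of all genes called lower and 6.04% higher. At an unadjusted p under 0.05, 30 members were lower (13.3% of all genes) and 0 higher, and neither DESeq2 nor limma called any higher. The median was -0.38, against -0.05 over all genes and 0.28 in other genes with a mean of 100 CPM or more. In 32 of 86 members every LRWE library was below every NC library, as in 20.5% of all genes. The subunit medians were -0.40 in the large and -0.31 in the small.

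Rpl12 read 222, 339.8 and 302 CPM in LRWE, all below the NC range of 562 to 648 (log2 -1.08, SE 0.18, edgeR adjusted p 0.011). Rpl9 read 179, 239 and 215 CPM (log2 -0.81, SE 0.15, edgeR adjusted p 0.015), and Rps27 37.0, 72.8 and 54.8 against 121, 126 and 116 in NC (log2 -1.14, SE 0.23, edgeR adjusted p 0.019). Rps27 shares 98.6% of its windows with Rps27rt, so its value is uncertain. Rps27rt did not fall in the same way, at 118, 38.8 and 118 CPM per kb in NC and 122, 159 and 69.7 in LRWE. How reads were divided between these rows was not tested. The others called were Rpl5, Rpl6, Rpl10, Rps18, Rps19, Rps25 and Rps26, with values from -0.66 (Rpl10) to -0.98 (Rps19), and Rpl3, Rpl26, Rpl31 and Rpl32. The P-stalk genes were not called, with log2 fold changes of 0.07 (SE 0.22) for Rplp0, 0.02 (SE 0.25) for Rplp1 and 0.34 (SE 0.27) for Rplp2, and Rpl18 and Rps13 stood at 0.34 and 0.22, also not called. Rplp0 and Rplp1 changed sign when libraries were scaled by their totals (-0.01 and -0.07), and without LRWE 2 (-0.10 and -0.31).

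Of the 14 calls only that of Rpl12 held in all 9 fits that left out a library. Without NC 1, NC 2, NC 3 or LRWE 3 there were 1, 4, 1 and 3 members called lower, beside 0.912%, 0.886%, 1.10% and 1.68% of all genes. Without LRWE 2 there were 24, beside 2.43% of all genes, with a median of -0.62. Without LRWE 1 there were 10, beside 5.11% of all genes, with a median of -0.22. Of the other lists, 0 of the 4 genes outside the rule and 0 of 12 elongation factors and TOP messages were called by edgeR, with medians of -0.05 and -0.11. Of 34 initiation factors 5 fell and 3 rose (median -0.01), and 6 of 49 biogenesis genes fell (median -0.24). Over all genes 3.97% were called lower and 6.04% higher.

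The scaling of the libraries moved the values of the LRWE group more than those of MC against NC. With TMM factors computed without the members the 3 medians were -0.97, 0.57 and -0.39, and with DESeq2-type (RLE) factors -0.94, 0.53 and -0.39. Scaling by library totals moved the median of all genes by over 0.1, to 0.14 in MC against NC and -0.24 in LRWE against MC. The members then stood at -0.83, 0.35 and -0.47, which relative to all genes is -0.98, 0.59 and -0.37. Factors computed from other abundant genes alone, a choice made after seeing the data, put all genes at 0.05, -0.36 and -0.32 and the members at -0.94, 0.23 and -0.69. Under them 61, 0 and 46 members were called lower in the 3 comparisons, beside 3.26%, 0% and 6.48% of all genes, and 0 higher.

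**Figure D5:**
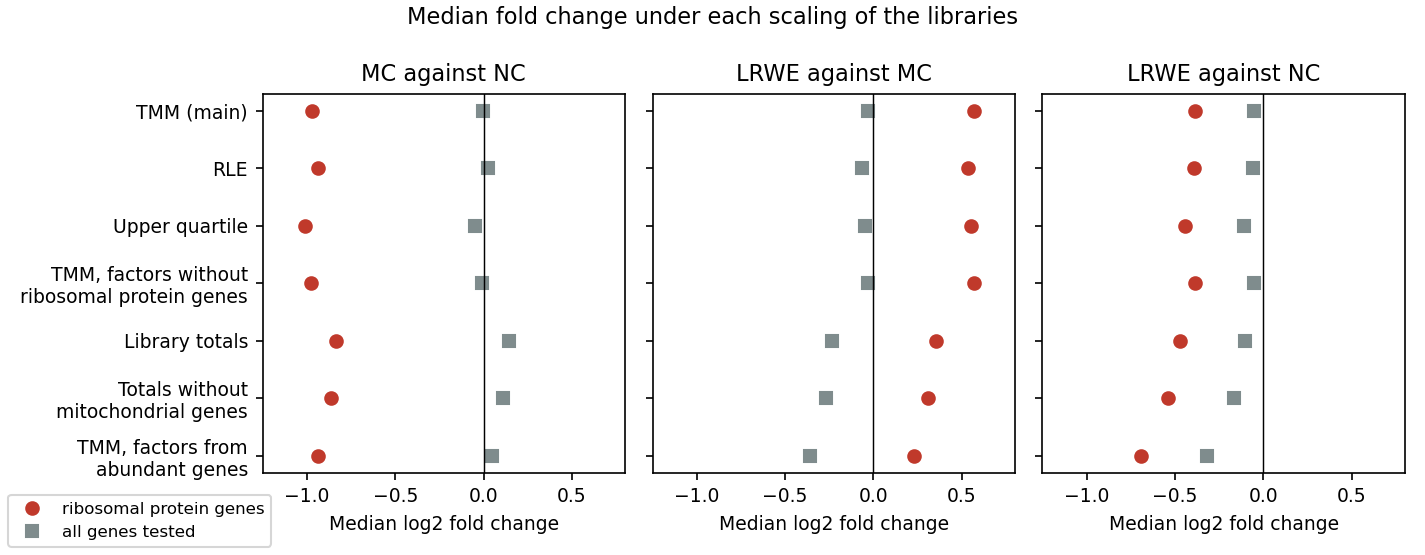
Median log2 fold change of ribosomal protein genes (red circles) and of all tested genes (grey squares) under 7 scalings of the libraries, in the 3 comparisons. In MC against NC the red points stay between -1.01 and -0.83. In LRWE against MC they range from 0.23 to 0.57, and in LRWE against NC from -0.69 to -0.38.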

How the data were processed

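The values were deposited per gene as whole-number counts, handled as estimated counts because the submitters' processing notes name StringTie 1.3.4d, and as FPKM, scaled by the authors per the file headers. The notes also name cutadapt 1.9, HISAT2 2.0.4 and edgeR without a version. The only build in them, hg38, is a human one, so coordinates in the deposited table were left unused.

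Counts were tested with edgeR 4.0.16 in R 4.3.3 (filterByExpr, TMM, quasi-likelihood, 1 mean per group over 9 libraries, Benjamini-Hochberg over 21767 genes). Alternatives were DESeq2 1.42.0, limma 3.58.1 on log2(FPKM + 1), other scalings and filters, and single libraries left out. TMM from abundant genes and leaving out paralogue-type rows were chosen after seeing the data. Members, lists and tests were chosen with earlier results of these data known. Named were, per subunit and comparison, the 3 highest in FPKM, up to 5 called of smallest adjusted p and the 3 highest and lowest in fold change, besides paralogue-type members, the P-stalk genes, Rpsa, Rpl5, Rpl11, Rps6 and, of each other list, up to 4 called. Others, such as Rpl13a, Rps15a and Rpl37a, and Eif4g1, Eif4g3 and Mdm2 in MC against NC, were named after their values were seen. A few genes that entered the counts and medians are not reported here by name.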

Additional observations from a re-analysis of the deposited data

How the results depend on the processing

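The sign of the members' median held under every alternative in the 3 comparisons. Called lower in MC against NC were 51 members, and 11 to 69 with a library left out (0.765% to 6.08% of all genes). In LRWE against MC 0 were called, but 25 by DESeq2 (5.96% of all genes higher). With a library left out 0 to 33 were called (0% to 4.13% of all genes higher). The median of 0.57 became 0.23 with TMM from abundant genes. In LRWE against NC 14 were called, and 1 to 24 with a library left out (0.886% to 5.11% of all genes lower). With library totals 28 were called (3.57% of all genes lower), and 35 with totals without mitochondrial genes (4.72%). DESeq2 called 26 (9.15%), limma 37 (8.66%, or 7.96% with pseudocount 0.1) and limma with no filter 27 (3.03%). With TMM from abundant genes 46 were called (6.48%), and the median moved to -0.69. The large minus small difference ran from -0.091 to 0.022 in LRWE against MC and from -0.16 to -0.045 in LRWE against NC with a library left out. The shares of counts became 4.10% in NC and 2.21% in MC without mitochondrial genes, and 3.66% and 2.03% with pseudogene rows added. The replicate numbers did not pair the libraries (9 correlations of deviations, from -0.16 to 0.03), and with a replicate block 9, 0 and 2 members were called lower in the 3 comparisons (0.887%, 0% and 1.2% of all genes). The cause of these differences was not tested.

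Genes near 0 changed sign. In MC against NC, Rpl7l1 was -0.041 with upper-quartile scaling, -0.010 with no filter, -0.00044 with TMM without members, -0.0033 with the replicate block and -0.0030 with pseudogene rows added, and with a library left out Rpl7l1 ran from -0.10 to 0.12 and Rpl3l from -0.24 to 2.77. In LRWE against MC, with totals, totals without mitochondrial genes and limma (pseudocounts 1 and 0.1), Rpl7l1 was -0.16, -0.19, -0.10 and -0.11, Rps27 -0.057, -0.094, -0.052 and -0.053, and Rps28 -0.059, -0.10, -0.085 and -0.091. Leaving out a library gave -0.063 to 0.17 for Rpl7l1, -0.13 to 0.54 for Rpl37rt, -0.086 to 0.38 for Rps27 and -0.28 to 0.40 for Rps28. In LRWE against NC, Rplp1 was -0.070 with totals, -0.067 with no filter, -0.039 with upper quartile, -0.14 without mitochondrial genes, -0.077 by limma and -0.0084 with the replicate block. Rplp0 was -0.012 with totals or no filter and -0.076 without mitochondrial genes, Rpl36al -0.062 without mitochondrial genes and -0.0025 or -0.0030 by limma, and Rpl7l1 -0.060 without mitochondrial genes and -0.0096 with no filter. Leaving out a library gave -0.31 to 0.20 for Rplp1, -0.10 to 0.22 for Rplp0, -0.044 to 0.44 for Rpl22l1, -0.26 to 0.26 for Rpl36al, -3.83 to 0.32 for Rpl3l, -0.074 to 0.74 for Rpl7a, -0.070 to 0.40 for Rps13, -0.43 to 0.075 for Rps27l, -0.089 to 0.61 for Rps27rt, -0.044 to 0.62 for Rps4l and -0.37 to 0.039 for Rpsa. Library totals of 59042063 to 65042857 counts were deep, and 3 mice per group limit the precision. Rpl3l and Rpl39l were near the limit of detection.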
